A study of Bos taurus with 46 samples.

Results

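B cells are the lymphocytes that carry a membrane antibody as their antigen receptor. CD79A and CD79B form the signalling pair of that receptor, kinases and adaptors pass the signal on, and a small set of transcription factors keeps the B cell programme. When an activated B cell becomes an antibody-secreting plasma cell, the factors IRF4, PRDM1 and XBP1 take over from PAX5 and BACH2, and genes of antibody assembly such as JCHAIN and MZB1 are switched on. Described here are 34 genes of this programme, chosen by symbol from the NCBI gene table of 30675 genes. The rule used no measured value, but the genes were chosen with earlier results of these data known. All 34 were found in the table, and all 34 passed the filter on low counts in each of the 12 comparisons.

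The libraries are bulk RNA-seq of maternal blood leukocytes, taken from the buffy coat after red cell lysis. They come from 23 Angus crossbred heifers, each bled on days 55 and 105 of gestation (D55 and D105), which gives 46 libraries. The AI group held 8 heifers that had conceived by artificial insemination. The IVP heifers received embryos produced in vitro, from Angus or Angus-crossbred oocytes fertilised with Brahman semen and cultured with serum. They were split by the weight of the fetus at collection on D105 into IVP-Normal (labelled ARTnormal, 6 heifers) and IVP-LOS (labelled ARTLOS, 9 heifers). Each IVP-LOS dam carried a fetus heavier than nearly all AI fetuses of its sex, as in large offspring syndrome (LOS). A group is therefore defined by the fetus, whereas the RNA is that of the dam. The labels do not give the number of fetuses that each dam carried.

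Each library held between 18692653 and 24502012 reads on genes. The labels place all D55 libraries, and the D105 libraries of IVP-Normal, in a set called New, and the D105 libraries of AI and IVP-LOS in a set called BACKUP. Day and library set therefore cannot be told apart in AI and IVP-LOS, and the D105 comparisons with IVP-Normal also cross the sets. The D105 libraries of IVP-LOS heifers 604 and 664, dams that the study singled out for their very heavy fetuses, stood apart, with 38.0% and 36.1% of reads on no gene against 23.2% to 30.6% in the other 44, so results that rest on them are given with and without them. In bulk leukocytes, fewer B cells and less RNA per B cell cannot be told apart. The B cell label held in every library: the lowest counts over the 46 libraries were 10873 reads for MS4A1 (CD20), 5829 for CD79A and 3672 for PAX5, while TNFRSF17, the plasma cell receptor BCMA, was near the detection limit in some libraries, at 13 to 166 reads.

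Of the 34 genes, 3 of the 4 plasma cell genes differed most between heifers on D55. The standard deviation of log2(CPM + 1) over the 23 heifers was largest for MZB1 (0.63), a chaperone of antibody assembly, CD38 (0.62), a surface enzyme of activated B cells and plasma cells, and JCHAIN (0.55), the chain that joins polymeric IgA and IgM. It was smallest for IRF8 (0.21), SWAP70 (0.23) and CD72 (0.23). The median was 0.37 over the 34 genes and 0.22 over all 16487 genes measured across the 46 libraries. JCHAIN spanned 187 to 1292 CPM (counts scaled to library size, with TMM normalisation) over the 46 libraries, and MZB1 spanned 10.3 to 80.8 CPM. CD79A had a narrower span, from 261 to 1073 CPM, and MS4A1 ranged from 488 to 1896 CPM.

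The first question was whether these transcripts changed between D55 and D105 in the same heifers. As a single measure, the mean log2(CPM + 1) over the 34 genes was taken in each library, as a description with no test. In AI, the D55 score lay between 6.98 and 7.51 with a median of 7.18, and the D105 score between 6.66 and 7.39 with a median of 6.94. The D105 score was below the D55 score in 8 of 8 AI heifers, although the ranges of the days overlapped. The mean difference was -0.24 ± 0.13 (SD, n = 8). In IVP-Normal, the score ranged from 7.23 to 7.66 on D55 (median 7.39) and from 7.07 to 7.48 on D105 (median 7.27). It was lower on D105 in 5 of 6 heifers, with a mean difference of -0.13 ± 0.11 (SD, n = 6). In IVP-LOS, the score ranged from 6.97 to 7.52 on D55 (median 7.16) and from 6.79 to 7.45 on D105 (median 7.13). It was lower on D105 in 7 of 9 heifers, with a mean difference of -0.09 ± 0.20 (SD, n = 9). Without heifers 604 and 664 that difference was -0.13 ± 0.19 (SD, n = 7).

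**Figure D1:**
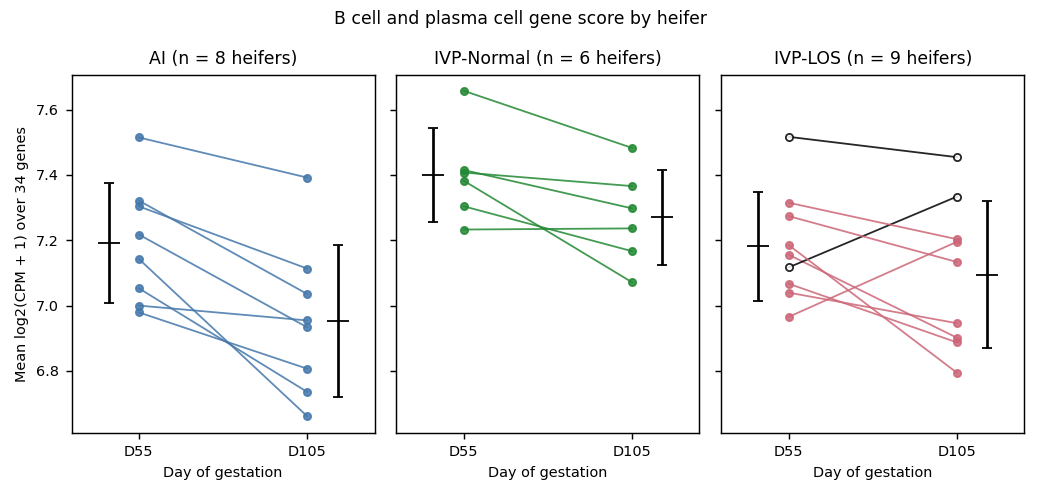
Mean log2(CPM + 1) over the 34 genes (y axis) on D55 and D105 (x axis), with 1 line per heifer. Bars at the sides are group means ± SD, and open black points are IVP-LOS heifers 604 and 664. All 8 AI lines slope down, as do 5 of 6 IVP-Normal and 7 of 9 IVP-LOS lines.

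Gene by gene, each day comparison was made with edgeR's quasi-likelihood test on the libraries of 1 treatment group, with Benjamini-Hochberg adjustment over all genes tested and a gene called at an adjusted p of at most 0.05. In AI, 1 of the 34 genes was called, CD72, and it was lower on D105. Over all genes, 9.95% were called in this comparison and 2.73% were called lower. Because the same heifers were bled on both days, the comparison was also fitted with heifer as a block. The paired fit called 13 of the 34 genes in AI, all 13 lower on D105, against 17.1% of all genes called in that fit and 6.89% called lower. Of the 34 AI estimates, 31 were negative in the unpaired fit, with a median log2 fold change of -0.26 beside -0.02 over all genes. Many of the 34 genes varied together from heifer to heifer, as described below, so such counts are not counts of independent results. In IVP-Normal, 0 genes were called by either fit, where 2.45% of all genes were called unpaired and 5.5% paired. At an unadjusted p under 0.05 the IVP-Normal counts were 6 unpaired and 14 paired, beside 13.3% and 21.3% of all genes. There, DESeq2's likelihood ratio test called 1 gene (PLCG2) and edgeR's likelihood ratio test 0. The median of the 34 IVP-Normal estimates was -0.16, and 26 were negative. In IVP-LOS, 0 genes were called by either fit, with 0.251% of all genes called unpaired and 1.07% paired. At an unadjusted p under 0.05 there were 2 genes unpaired and 6 paired, beside 12.6% and 18.2% of all genes, and both likelihood ratio tests called 0. Without heifers 604 and 664 these counts were 4 and 11, beside 8.9% and 15.9%. The median of the IVP-LOS estimates was -0.04, and -0.18 without heifers 604 and 664. The sign of the unpaired IVP-LOS estimate changed for 13 of the 34 genes when the pair was left out.

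**Figure D2:**
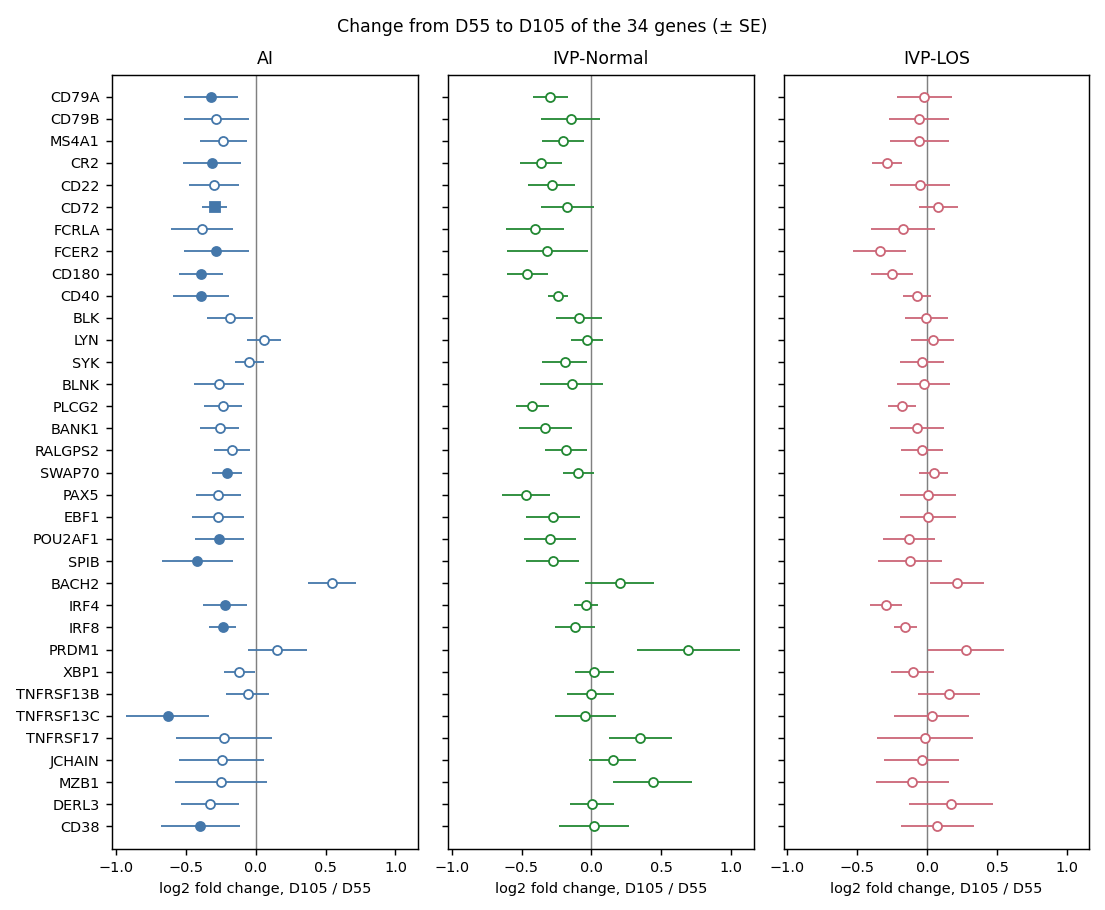
log2 fold change from D55 to D105 (x axis, ± SE, unpaired fit) of each of the 34 genes (y axis, ordered by role) in the 3 treatment groups. Filled points are genes called with heifer as a block and the square is CD72, called also without it. Filled points occur in AI, where 31 of 34 estimates lie below 0.

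The genes of the antigen receptor and the B cell surface gave the most even pattern. All 10 had negative estimates in AI and in IVP-Normal, and 9 of 10 in IVP-LOS. In AI, the paired fit called 6 of the 10: CD79A, CR2, CD72, FCER2, CD180 and CD40. CD79A lay between 472 and 824 CPM on D55 in AI (median 578) and between 261 and 787 CPM on D105 (median 477). The ranges overlapped, and the log2 fold change was -0.32 ± 0.19 (SE, adjusted p = 0.358) unpaired and -0.37 ± 0.10 (adjusted p = 0.0291) paired. In IVP-Normal, CD79A was lower on D105 in 6 of 6 heifers, from a median of 777 to a median of 620 CPM, but the paired fold change of -0.29 ± 0.09 was not called (adjusted p = 0.098). In IVP-LOS its medians were 572 and 541 CPM, and the log2 fold change was -0.02 ± 0.20, or -0.19 without heifers 604 and 664. CD72, an inhibitory co-receptor, had 41.6 to 59.6 CPM on D55 in AI (median 47.4) and 31.8 to 49.7 CPM on D105 (median 39.9). It was lower on D105 in 8 of 8 AI heifers, by -0.29 ± 0.09 on the log2 scale (adjusted p = 0.0455 unpaired, 0.0123 paired). With no filter on low counts its adjusted p was 0.0582.

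CD40, the receptor for T cell help, was lower on D105 in 8 of 8 AI heifers (-0.43 ± 0.10 paired, adjusted p = 0.0154). It was lower in 6 of 6 IVP-Normal heifers, but not called (-0.23 ± 0.08 paired, adjusted p = 0.114). In IVP-LOS it was lower in 6 of 9 (-0.09 ± 0.11 paired, and -0.21 unpaired without heifers 604 and 664). The complement receptor CR2 and the low-affinity IgE receptor FCER2 were also lower in 8 of 8 AI heifers, with paired log2 fold changes of -0.34 ± 0.09 and -0.32 ± 0.07 (adjusted p of 0.0198 and 0.0105). CR2 went from a median of 156 to 135 CPM in AI and FCER2 from 147 to 116.6 CPM, and for both the ranges of the days overlapped. Both genes were also lower in 6 of 6 IVP-Normal and 8 of 9 IVP-LOS heifers, though not called there. Their paired estimates in IVP-Normal were -0.35 ± 0.11 and -0.31 ± 0.08 (adjusted p of 0.0994 and 0.065). In IVP-LOS they were -0.29 ± 0.08 and -0.35 ± 0.10 (adjusted p of 0.091 and 0.127). CD180, a receptor related to the Toll-like receptors, had a paired fold change of -0.41 ± 0.10 (adjusted p = 0.0196) in AI. In IVP-Normal the paired CD180 estimate was -0.48 ± 0.12, which missed the threshold (adjusted p = 0.0527). MS4A1, which encodes CD20, was not called in any group: in AI it ranged from 872 to 1467 CPM on D55 and from 488 to 1349 CPM on D105, with a paired log2 fold change of -0.27 ± 0.10 (adjusted p = 0.0877). CD79B, CD22, an inhibitory lectin, and FCRLA, an Fc receptor-like protein kept inside the cell, had paired AI estimates of -0.33, -0.34 and -0.41 with adjusted p between 0.0582 and 0.073.

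Among the 8 signalling genes, the paired AI fit called SWAP70, which acts in B cell cytoskeleton and class switching. SWAP70 was lower on D105 in 8 of 8 AI heifers, from a median of 131.6 to 114.03 CPM, with a log2 fold change of -0.20 ± 0.05 (adjusted p = 0.0118). The other 7 were not called in AI. The kinases LYN and SYK, which many other leukocytes also express, had estimates close to 0 (0.06 ± 0.12 and -0.05 ± 0.10), whereas the B cell kinase BLK, the adaptor BLNK, the scaffold BANK1, the phospholipase PLCG2 and the exchange factor RALGPS2 ranged from -0.26 to -0.17. PLCG2 had its largest estimate in IVP-Normal, with 299 to 501 CPM on D55 (median 469) and 277 to 368 CPM on D105 (median 328). Its log2 fold change there was -0.42 ± 0.12 (adjusted p = 0.101 with edgeR's quasi-likelihood test, 0.0479 with DESeq2). In IVP-LOS the 8 estimates lay between -0.18 and 0.05, and LYN, SWAP70 and BLK changed sign without the pair.

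The transcription factors did not move together. In AI the paired fit called 4 of the 9 lower on D105: SPIB, which partners IRF4 and IRF8 in B cells, POU2AF1, the B cell co-activator, IRF4 and IRF8. SPIB went from a median of 485 to 351 CPM, with a paired log2 fold change of -0.47 ± 0.14 (adjusted p = 0.0467). IRF4 was lower in 8 of 8 AI heifers (-0.21 ± 0.05 paired, adjusted p = 0.0208) and in 9 of 9 IVP-LOS heifers, where the paired estimate of -0.30 ± 0.07 was not called (adjusted p = 0.0674). POU2AF1 and IRF8 had paired AI estimates of -0.29 ± 0.08 and -0.23 ± 0.07 (adjusted p of 0.0374 and 0.0391). Their paired IVP-Normal estimates were -0.29 ± 0.08 and -0.12 ± 0.09 (adjusted p of 0.0659 and 0.496). In IVP-LOS they were -0.14 ± 0.08 and -0.17 ± 0.07 (adjusted p of 0.348 and 0.225). PAX5, the factor that holds B cell identity, ranged in AI from 300 to 472 CPM on D55 (median 364) and from 165 to 430 CPM on D105 (median 320), with a paired fold change of -0.30 ± 0.12 (adjusted p = 0.106). In IVP-Normal its medians were 548 and 381 CPM, with a paired estimate of -0.44 ± 0.13 (adjusted p = 0.0864). EBF1, which acts with PAX5 early in the lineage, had paired estimates of -0.31 in AI and -0.27 in IVP-Normal.

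BACH2 and PRDM1 had positive estimates in all 3 groups. BACH2, the repressor that delays plasma cell formation, lay between 26.8 and 36.7 CPM on D55 in AI and between 29.1 and 75.6 CPM on D105. Its log2 fold change of 0.55 ± 0.17 just missed the threshold (adjusted p = 0.0542, paired 0.0771) and was called by both likelihood ratio tests (adjusted p of 0.026 with edgeR and 0.0207 with DESeq2). PRDM1, which encodes BLIMP1 and is also active in T cells, had a paired estimate of 0.56 ± 0.15 in IVP-Normal (adjusted p = 0.0529) and 0.17 ± 0.15 in AI. XBP1, a factor of secretory cells, had an AI estimate of -0.12 ± 0.11.

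Of the 3 receptors for the survival ligands BAFF and APRIL, TNFRSF13C (the BAFF receptor) had the most negative estimate of all 34 genes in AI. TNFRSF13C lay between 58.4 and 194 CPM on D55 in AI (median 101.5) and between 28.9 and 118.95 CPM on D105 (median 70.1). It was lower on D105 in 8 of 8 heifers although the ranges overlapped, with a log2 fold change of -0.63 ± 0.30 (adjusted p = 0.215) unpaired and -0.63 ± 0.13 (adjusted p = 0.00826) paired. The matching estimates were -0.04 ± 0.22 in IVP-Normal and 0.03 ± 0.27 in IVP-LOS. In IVP-LOS it became -0.28 without heifers 604 and 664. TNFRSF13B, the receptor TACI, had estimates of -0.06, -0.01 and 0.16 in AI, IVP-Normal and IVP-LOS, and -0.04 in IVP-LOS without the pair. TNFRSF17 had estimates of -0.23, 0.35 and -0.02, each with an SE of at least 0.22 at its low counts, and 0.15 in IVP-LOS without the pair.

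The plasma cell genes had negative estimates in AI and mixed signs in the IVP groups, and 1 of the 4 was called, CD38 in the paired AI fit. CD38 was lower on D105 in 8 of 8 AI heifers, with 21.0 to 77.8 CPM on D55 (median 53.5) and 18.4 to 64.8 CPM on D105 (median 35.8). Its paired log2 fold change was -0.41 ± 0.13 (adjusted p = 0.0482), beside -0.01 ± 0.11 in IVP-Normal and 0.03 ± 0.11 in IVP-LOS, or -0.06 without the pair. JCHAIN in AI ranged from 271 to 1292 CPM on D55 (median 439) and from 220 to 649 CPM on D105 (median 436), with a paired fold change of -0.16 ± 0.13 (adjusted p = 0.423). In IVP-Normal and IVP-LOS the unpaired JCHAIN estimates were 0.15 ± 0.17 and -0.04 ± 0.27, the latter 0.10 without the pair. MZB1 had unpaired estimates of -0.25, 0.44 and -0.11 in AI, IVP-Normal and IVP-LOS (0.07 in IVP-LOS without the pair), and none was called. In AI its paired estimate was -0.11 ± 0.17, and it was lower on D105 in 4 of 8 heifers. AI heifer 533 had the highest D55 values for JCHAIN and MZB1, at 1292 and 80.8 CPM, and her part in the AI estimates was not tested. DERL3, a protein of endoplasmic reticulum quality control, had estimates of -0.33 in AI and 0.17 in IVP-LOS (-0.18 without the pair), and lay within 0.01 of 0 in IVP-Normal.

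**Figure D3:**
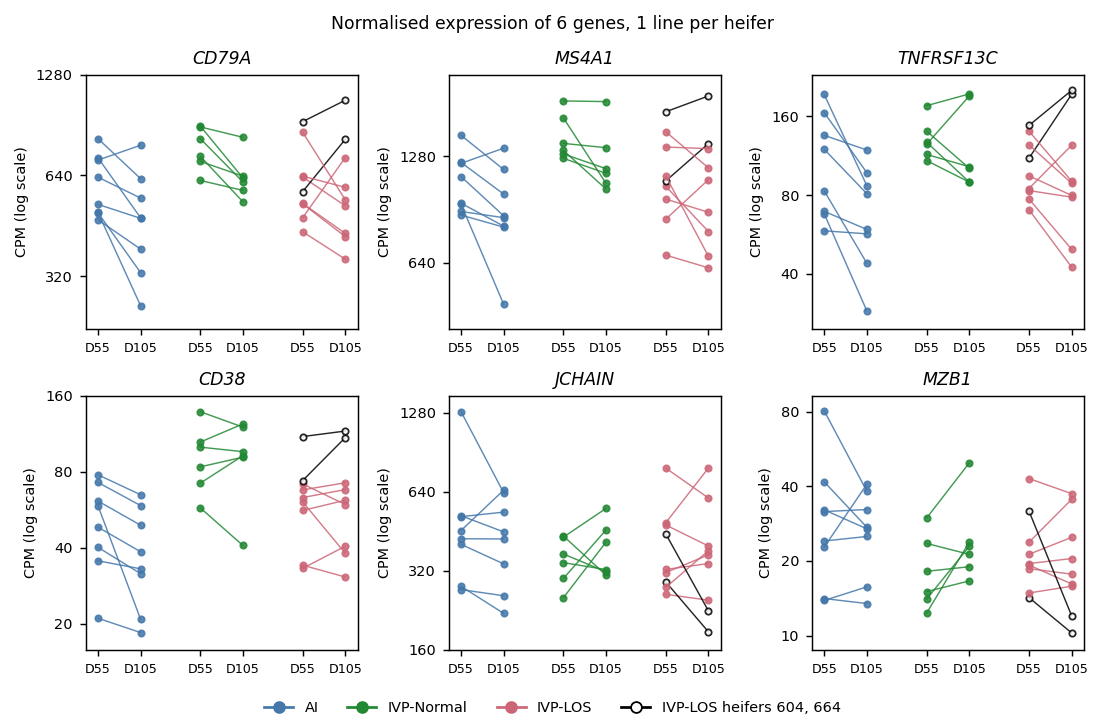
CPM on a log scale (y axis) of CD79A, MS4A1, TNFRSF13C, CD38, JCHAIN and MZB1 on D55 and D105 (x axis), with 1 line per heifer and 1 colour per treatment group. Open black points are IVP-LOS heifers 604 and 664, whose D105 libraries are among the highest for CD79A and MS4A1 and the lowest for MZB1.

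The change over time was then compared between the treatment groups as an interaction of treatment and day. AI and IVP-LOS both went from set New to set BACKUP, whereas IVP-Normal was in set New on both days. In the pairs with IVP-Normal, treatment and the change of set therefore cannot be told apart. For each of the 3 pairs of groups, 0 of the 34 genes were called, where 0% of all genes were called. The likelihood ratio tests of edgeR and DESeq2 and the paired fits also called 0 of the 34. At an unadjusted p under 0.05 there was 1 gene for IVP-LOS against AI (CD72, with a difference in log2 fold change of 0.38 ± 0.18, adjusted p = 0.909), beside 4.96% of all genes, and 0 for the other two pairs, beside 3.39% for IVP-Normal against AI and 0.828% for IVP-LOS against IVP-Normal. The paired counts were 4 for IVP-LOS against AI (10.5% of all genes), 2 for IVP-Normal against AI (6.23%) and 2 for IVP-LOS against IVP-Normal (2.77%). Without heifers 604 and 664 the unpaired count for IVP-LOS against AI was 0 (1.8% of all genes). The unpaired TNFRSF13C difference between AI and IVP-LOS was 0.68 ± 0.41 and that between AI and IVP-Normal 0.60 ± 0.41. In the paired fits these were 0.53 ± 0.23 (adjusted p = 0.474) and 0.53 ± 0.21 (adjusted p = 0.754), both at an unadjusted p under 0.05. TNFRSF13C was not called, so these data do not show that the groups differ in how it changed. The median difference over the 34 genes was 0.20 for IVP-LOS against AI, and 0.09 without heifers 604 and 664.

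Related genes that were not among the 34 gave a mixed picture. Of 15 further genes of B cell receptor signalling, 1 was called higher on D105 in AI, PIK3CD, the kinase subunit p110 delta (0.42 ± 0.10, adjusted p = 0.00818), and 0 in the other groups, where at an unadjusted p under 0.05 there were 0 in IVP-Normal and 1 in IVP-LOS. The paired AI fit called 3, PIK3CD and the adaptor GRB2 higher (0.17 ± 0.05, adjusted p = 0.0362) and the exchange factor VAV2 lower (-0.46 ± 0.12, adjusted p = 0.025). Of 21 further B cell genes, 19 were tested. In AI and in IVP-Normal the unpaired fit called 2 of them, both higher on D105: CD24, with a log2 fold change of 3.57 ± 0.42 in AI, and BCL6, the germinal centre factor, with 1.82 ± 0.28. Both genes are also expressed in granulocytes. VPREB3, a protein of B cell precursors, was called lower on D105 in the paired AI fit (-0.56 ± 0.14, adjusted p = 0.0201). Of 10 further genes of the secretory pathway, 9 were tested and 2 were called higher in AI and in IVP-Normal, FKBP11, a chaperone (1.07 ± 0.15 in AI), and ELL2, an elongation factor (1.08 ± 0.23 in AI). Of 5 ligands of B cell receptors, 3 were tested, and 0 were called in any day comparison, with 0 at an unadjusted p under 0.05 in the unpaired fits and 1 in the paired IVP-LOS fit.

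Markers of granulocytes moved between the days alongside these genes. All 5 neutrophil markers tested were called higher on D105 in AI, 3 of 5 in IVP-Normal and 0 of 5 in IVP-LOS, with median log2 fold changes of 1.57, 1.46 and 1.60, and 3 of 5 were at an unadjusted p under 0.05 in IVP-LOS. Their summed level ranged from 579 to 1452 CPM on D55 and from 1493 to 4568 CPM on D105 in AI. It ranged from 357 to 1005 and from 924 to 4228 CPM in IVP-Normal, and from 436 to 1402 and from 291 to 11612 CPM in IVP-LOS. The median sum went from 960 to 2136 CPM in AI and from 775 to 1576 CPM in IVP-Normal, but was 985 and 967 CPM in IVP-LOS, where the D105 range was the widest. Over the 8 T cell markers, the median log2 fold change was 0.02 in AI, 0.01 in IVP-Normal and 0.02 in IVP-LOS, and 0 were called, with 0 at an unadjusted p under 0.05. The part of the neutrophil markers in the results on the 34 genes was not tested. Among the markers of other cells, CD14 of monocytes and XCR1 of dendritic cells were called higher in AI, GZMB of cytotoxic cells was called higher in IVP-Normal, and 0 of the 3 erythroid markers tested were called. The paired fit called all 5 neutrophil markers higher in IVP-Normal and 3 of 5 monocyte markers higher in AI. Of 6 natural killer markers it called GZMB higher and NKG7 and KLRD1 lower in AI (1.85, -0.36 and -0.48), and of 4 dendritic cell markers XCR1 and BATF3 higher and PACSIN1 lower (1.22, 0.59 and -0.46). It also called the platelet marker ITGA2B higher (0.37 ± 0.09) and the dendritic marker PACSIN1 lower (-0.39 ± 0.09) in IVP-Normal, and the erythroid ALAS2 lower in AI (-1.24 ± 0.19) and in IVP-Normal (-1.01 ± 0.20).

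The next question was whether the treatment groups differed on a given day. On D55, 0 of the 34 genes were called between IVP-Normal and AI, where 0% of all genes were called, and both likelihood ratio tests also called 0 of the 34. At an unadjusted p under 0.05 there were 20 of the 34 genes, 18 of them higher in IVP-Normal, beside 9.92% of all genes. Their smallest adjusted p was 0.493, so none of these differences passed the test. Many of the 34 genes varied together across the D55 libraries, as described below, so the count is not one of independent results. The lowest of the 6 IVP-Normal D55 values for CD180 was 146 CPM, against a highest AI value of 152 CPM. MS4A1 ranged from 1263 to 1836 CPM in IVP-Normal on D55 (median 1361) and from 872 to 1467 CPM in AI (median 1032), a log2 difference of 0.42 ± 0.13. PAX5 ranged from 324 to 717 CPM in IVP-Normal (median 548), beside 300 to 472 CPM in AI, a difference of 0.50 ± 0.15. CD22 and CR2 differed by 0.47 ± 0.13 and 0.53 ± 0.17 in the same direction. The 2 genes in the other direction were XBP1 (-0.36 ± 0.11) and MZB1 (-0.81 ± 0.36). The groups overlapped in each of these genes.

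Between IVP-LOS and IVP-Normal on D55, 0 genes were called (0% of all genes), also by both likelihood ratio tests, and 10 of the 34 were at an unadjusted p under 0.05, all 10 lower in IVP-LOS, beside 5.19% of all genes. CD40 was the first of them, with 72.1 to 87.9 CPM in IVP-LOS and 91.4 to 110.9 CPM in IVP-Normal. These CD40 ranges did not overlap, and the log2 difference was -0.25 ± 0.07 (adjusted p = 0.839). Without heifers 604 and 664, the count at an unadjusted p under 0.05 was 18, beside 7.54% of all genes, again with 0 called. Between IVP-LOS and AI on D55, 0 genes were called (0% of all genes), also by both likelihood ratio tests, and 1 was at an unadjusted p under 0.05, IRF8 (-0.22 ± 0.08), beside 7.74% of all genes. Without the pair there were 2, IRF8 and BACH2, beside 5.55%. The 3 comparisons of a day share their libraries: the same 6 IVP-Normal libraries stand against AI and against IVP-LOS.

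On D105, 0 genes were called between IVP-Normal and AI (0% of all genes), also by both likelihood ratio tests, and 11 were at an unadjusted p under 0.05, all 11 higher in IVP-Normal, beside 9.57% of all genes. These libraries belong to different sets, so treatment and set cannot be told apart. CD38 had the smallest p of the 34, with 18.4 to 64.8 CPM in AI (median 35.8) and 40.8 to 123.6 CPM in IVP-Normal (median 94.2). Its log2 difference was 1.27 ± 0.29 (adjusted p = 0.514), and the ranges overlapped. On D55, when both groups were in set New, CD38 ranged from 21.0 to 77.8 CPM in AI and from 57.5 to 138 CPM in IVP-Normal, a difference of 0.83 ± 0.25. Between IVP-LOS and AI on D105, both in set BACKUP, 0 genes were called (0% of all genes), also by both likelihood ratio tests, and 2 were at an unadjusted p under 0.05, CD38 (0.76 ± 0.30) and CD72 (0.37 ± 0.15), beside 5.76% of all genes. Without heifers 604 and 664 these differences were 0.43 ± 0.27 and 0.18 ± 0.12, and 1 other gene, IRF8, was at an unadjusted p under 0.05, beside 3.15% of all genes. Between IVP-LOS and IVP-Normal on D105, 0 genes were called (0% of all genes), also by both likelihood ratio tests, and 1 was at an unadjusted p under 0.05, IRF4 (-0.28 ± 0.12), beside 3.24% of all genes. That count was 11 when heifers 604 and 664 were left out, beside 8.3% of all genes, again with 0 called, and IRF4 was not among the 11.

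**Figure D4:**
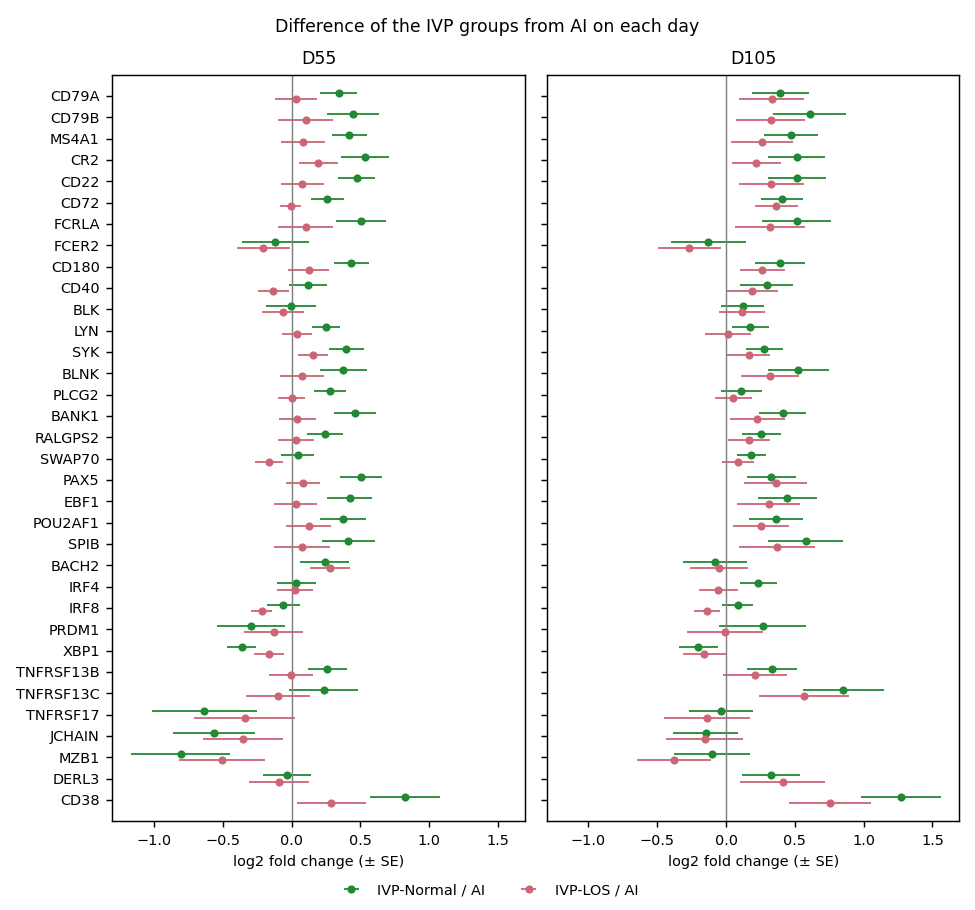
log2 fold change of IVP-Normal against AI and of IVP-LOS against AI (x axis, ± SE) for each of the 34 genes (y axis) on D55 and on D105. No point was called, and CD38 against AI on D105 lies farthest from 0 at 1.27 ± 0.29 in IVP-Normal.

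Heifers 604 and 664 are described by their values alone. The matching ranks over all genes were not computed, so the counts below cannot be read as particular to the 34 genes. On D105, heifer 664 had the highest value of all 23 heifers for 12 of the 34 genes, among them CD79A (1073 CPM), MS4A1 (1896 CPM) and PAX5 (728 CPM). For PAX5 heifer 604 came next at 565 CPM, and the highest of the other 21 heifers had 487 CPM. For 3 genes, PAX5, CD40 and DERL3, both heifers lay above all 21 others. DERL3 was 186 CPM in 604 and 311 CPM in 664, beside 58.7 to 163 CPM in the others. For MZB1 both lay below all 21 others, at 10.3 and 12.04 CPM against 13.5 to 49.7 CPM. JCHAIN showed the same order, at 187 and 225 CPM, except that 1 other heifer reached 220 CPM. The roles were not uniform: FCER2 ranked 19 in 604 and 21 in 664 of the 23 heifers, and BACH2 ranked 21 and 23, whereas CD38 ranked 4 and 3. These 2 libraries also had the largest shares of reads on no gene, whose part in these values was not tested. On D55, heifer 664 was already within the 5 highest for 21 of the 34 genes and heifer 604 for 1, whereas on D105 the counts were 23 and 19. With and without the pair, the IVP-LOS mean of CD79A on D105 was 608 ± 228 and 512 ± 122.5 CPM (SD, n = 9 and 7).

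The 34 genes were next compared with CD79A across the 23 D55 libraries, which all belong to 1 set, to see which of them followed the B cell receptor from heifer to heifer. Pearson's r with CD79A was above 0.5 for 20 of the other 33 genes (60.6%), beside 14.5% of all genes. With permutation p-values adjusted over the 33 genes, the same 20 genes were positively correlated at an adjusted p of at most 0.05, and 2 were negatively correlated. The closest were CD79B (r = 0.94, rho = 0.94), SPIB (r = 0.94, rho = 0.96), MS4A1 (r = 0.89, rho = 0.89) and TNFRSF13C (r = 0.87, rho = 0.88), each with a permutation p of 1e-05 for r, the smallest that 100000 permutations can give, and an adjusted permutation p of 4.12e-05. Without the 2 libraries farthest from the median of CD79A, r was 0.92, 0.92, 0.86 and 0.86. Within the treatment groups, r for MS4A1 was 0.92 in AI, 0.36 in IVP-Normal and 0.93 in IVP-LOS, and the positive sign held in all 3 groups for 14 of the 20 genes. All 20 had r above 0.5 in the 17 D105 libraries of set BACKUP as well, and 18 of the 20 did without heifers 604 and 664. LYN and SYK followed CD79A (r = 0.76 and 0.77, rho = 0.75 and 0.77, adjusted permutation p = 6.6e-05 for both r), and so did DERL3 (r = 0.77, rho = 0.80, adjusted permutation p = 0.00021), which was listed here with the plasma cell genes.

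PRDM1 and XBP1, both factors of plasma cell formation, ran opposite to CD79A. Their r values were -0.62 and -0.61, rho was -0.63 and -0.61, and the adjusted permutation p of r was 0.00323 for both. Without the 2 farthest libraries r was -0.62 and -0.52. The sign was negative in each treatment group for both genes, and in the 17 D105 BACKUP libraries r was -0.62 for PRDM1 and -0.84 for XBP1. PRDM1 and XBP1 are also expressed in other leukocytes, and which cells gave these transcripts was not measured. The other 11 genes were not correlated with CD79A at an adjusted permutation p of at most 0.05. Among them were BLK, FCER2, SWAP70, JCHAIN, MZB1 and TNFRSF17, with r between -0.22 and 0.05, BACH2 (-0.35), and PLCG2, IRF8, CD38 and IRF4, with r between 0.20 and 0.42.

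With JCHAIN as the reference gene, a different group appeared. Pearson's r with JCHAIN was above 0.5 for 4 of the other 33 genes (12.1%), beside 1.46% of all genes. MZB1 (r = 0.90, rho = 0.81, adjusted permutation p = 0.000165 for r), TNFRSF17 (r = 0.83, rho = 0.60, adjusted permutation p = 0.000165), IRF4 (r = 0.71, rho = 0.57, adjusted permutation p = 0.00429) and XBP1 (r = 0.63, rho = 0.48, adjusted permutation p = 0.0111) were correlated with JCHAIN on D55, and 0 of the other 29 were by r. By rank, FCRLA was also past the threshold, in the negative direction (rho = -0.56, adjusted permutation p = 0.0488). For XBP1 the rank correlation was not past the threshold (adjusted permutation p = 0.141). Without the 2 libraries farthest from the median of JCHAIN, r was 0.80 for MZB1, 0.55 for TNFRSF17, 0.33 for IRF4 and 0.31 for XBP1, so the relations of IRF4 and XBP1 rested in large part on those libraries. In the 17 D105 BACKUP libraries, r was 0.94, 0.88, 0.66 and 0.63 for the same genes, and 0.92, 0.90, 0.61 and 0.47 without heifers 604 and 664. In IVP-Normal, XBP1 had the other sign (r = -0.44). Heifer 533 of AI had the highest D55 values for JCHAIN (1292 CPM), MZB1 (80.8 CPM) and TNFRSF17 (6.99 CPM). CD79A and JCHAIN themselves had r = -0.22 (rho = -0.29, adjusted permutation p = 0.392 over the CD79A family). CD38 followed neither, with r = 0.27 against CD79A and -0.04 against JCHAIN. All of these values are shares of the same libraries, so a gene can also vary because other genes do.

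**Figure D5:**
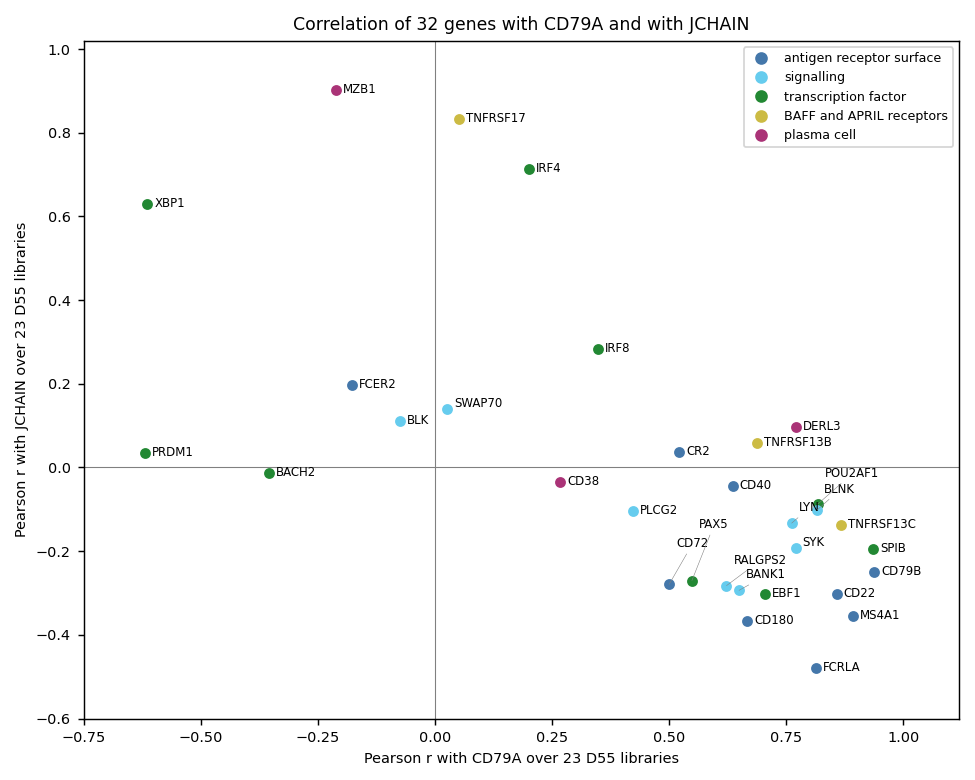
Pearson r with CD79A (x axis) and with JCHAIN (y axis) over the 23 D55 libraries for the other 32 genes, coloured by role. Receptor and surface genes gather at the right, where r with CD79A reaches 0.94, and MZB1 and TNFRSF17 stand at the top, where r with JCHAIN is 0.90 and 0.83.

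Finally, the level in a heifer on D55 was compared with her level on D105. CD79A had r = 0.66 (rho = 0.64) over the 23 heifers, MS4A1 r = 0.74 (rho = 0.71), JCHAIN r = 0.62 (rho = 0.61) and MZB1 r = 0.60 (rho = 0.63). Adjusted over these 4 genes, the permutation p of r was 0.0012, 0.0002, 0.00183 and 0.00214, and that of rho was 0.00185, 0.0008, 0.00286 and 0.00185. Without the 2 heifers farthest from the D55 median, r was 0.55, 0.65, 0.55 and 0.51. Within the groups, r for CD79A was 0.79 in AI, 0.59 in IVP-Normal and 0.57 in IVP-LOS, and IVP-Normal alone lies within 1 library set. JCHAIN had r = 0.78, -0.12 and 0.63 in the same order, so the relation did not hold among the 6 IVP-Normal heifers. Over all 34 genes the median r was 0.64, beside 0.37 over all genes. The ends of the range were CD38 and FCER2, both at 0.86, and BACH2 at 0.01.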

How the data were processed

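The authors trimmed the paired-end reads, aligned them to ARS-UCD1.2 with HISAT2 2.1.0 and counted them per NCBI RefSeq gene with HTSeq. The deposited values are raw counts, and whether counting used strand is not given in the sources used here. Columns were tied to samples by their BACKUP or New number. Library sizes exclude the summary rows of unassigned reads. The share of reads on no gene, 23.2% to 38.0%, was taken of the reads on genes, on no gene and ambiguous between genes. Here, edgeR 4.0.16 in R 4.3.3 gave TMM-normalised CPM and quasi-likelihood tests with Benjamini-Hochberg adjustment over all genes that passed filterByExpr (minimum count 10), on the libraries of the compared groups. DESeq2 1.42.0, edgeR's likelihood ratio test, upper-quartile scaling, no filter and a block on heifer were the alternatives. The unpaired quasi-likelihood and DESeq2 fits of the day comparisons and of IVP-Normal against AI on D55 were tested on simulated data with 200 changed genes. Quasi-likelihood recovered 65% to 77% of the 2-fold changes with 5 to 10 false calls. DESeq2 recovered 73% to 81% with 26 to 38 false calls, so its calls are less strict. PLCG2 in IVP-Normal was called by DESeq2 alone. Deviations from the group-day means correlated between the libraries of a heifer (median r = 0.562, all 23 above 0.1) and not between heifers (-0.024). The pairing comes from the heifer numbers in the labels. Correlations used log2(CPM + 1) and 100000 permutations, two-sided. Heifers are separate animals. The members and lists were chosen with earlier results of these data known. Named by rule were CD79A, MS4A1, PAX5, TNFRSF13C and JCHAIN, the called members with the 5 smallest adjusted p in a comparison (all where 10 or fewer), the 3 most and 3 least variable on D55, and at most 3 called genes of each other list. Further genes were chosen after their values were seen. The second deposited table, with Ensembl identifiers, was not used here. One gene of a further list is not reported here.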

Additional observations from a re-analysis of the deposited data

Results flagged for a closer look

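Single heifers far from the rest of their group were looked for in 210 sets of values, the 34 genes and their mean score in each group on each day, and 23 sets had one by Dixon's ratio. Chance flags about 1 in 20 groups of normally distributed values. The ratio was taken on CPM without a log scale, and the sets share libraries and genes that vary together. The 23 can therefore not be set against that rate. All 23 were the highest value of the group. Heifer 519 of IVP-Normal gave 7 of them: on D55 LYN at 1254 CPM, BLNK at 195 CPM and SPIB at 883 CPM, and on D105 CD79A at 831 CPM, CR2 at 249 CPM, CD22 at 1567 CPM and SYK at 1396 CPM. Heifer 533 of AI gave 7: on D55 IRF4 at 311 CPM, TNFRSF17 at 6.99 CPM, JCHAIN at 1292 CPM and MZB1 at 80.8 CPM, and on D105 SYK at 1120 CPM, TNFRSF13B at 14.2 CPM and DERL3 at 163 CPM. FCER2 stood out in AI heifer 546 on both days, at 289 CPM on D55 and 279 CPM on D105, where the other 7 AI heifers reached 184 and 137 CPM. In IVP-LOS, heifer 664 stood out on D105 for SYK (1489 CPM) and DERL3 (311 CPM), heifer 637 on D55 for XBP1 (120.7 CPM) and JCHAIN (787 CPM), and heifer 512 on D55 for PRDM1 (126.6 CPM). PRDM1 in AI heifer 590 on D55 (143 CPM) and MZB1 in IVP-Normal heifer 688 on D105 (49.7 CPM) complete the set. No gene was called for a difference between groups in its change over time.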

How the results depend on the processing

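The count of members called in AI between the days, 1 in the unpaired fit, was 13 with heifer as a replicate block (the paired fit), 2 with edgeR's likelihood ratio test, 2 with DESeq2 and 0 with no filter, and in IVP-Normal it was 0 except with DESeq2 (1). The block changed no other count. CD79A and TNFRSF13C in AI passed the threshold only with the block (log2 fold changes of -0.37 and -0.63). In IVP-LOS, 13 of 34 estimates changed sign without heifers 604 and 664, among them DERL3 (0.17 to -0.18), TNFRSF13B (0.16 to -0.04), MZB1 (-0.11 to 0.07) and TNFRSF17 (-0.02 to 0.15). Of the always named genes, PAX5 was 0.0054 in the unpaired fit and -0.059 with the block, -0.23 without heifers 604 and 664, -0.23 with both, -0.022 with upper-quartile scaling and -0.0013 with no filter. TNFRSF13C was -0.10 with the block, -0.28 without the pair and -0.32 with both, CD72 -0.14 and -0.16 without the pair, unpaired and blocked, and JCHAIN 0.10 and 0.11. The cause was not tested. The score differences kept their sign under another pseudocount, library totals without TMM, a median in place of the mean, and without heifers 604 and 664, but the IVP-LOS difference moved from -0.087 to -0.183 with the median and to -0.137 with library totals. Reads counted to genes that overlap a member (11 members overlap another gene in the reference table) could not be told apart. The alternative on the Ensembl table was not run, since its identifiers could not be matched to the members. Leaving out the pair with the block was chosen after seeing the data.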
